A study of Mus musculus with 8 samples.

Results

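The comparison described here is the addition of RVX2135, an inhibitor of BET bromodomain proteins, to VE-821, an inhibitor of the kinase ATR, in λ820 cells, which are Myc-driven lymphoma cells of the mouse. The first group received 10 µM VE-821 with 10 µM RVX2135, and the second received 10 µM VE-821 only. A pair of further groups, 10 µM RVX2135 and the solvent DMSO diluted 1000-fold, shows what RVX2135 did without the ATR inhibitor. Each of the 4 groups had 2 one-colour Illumina bead arrays of total RNA taken 24 h after the start of treatment, so n = 2 per group holds for every value. The cells come from 1 line, and the labels do not tell whether a replicate was a culture of its own, so p-values here reflect the spread between the samples alone, and that spread may be technical. Members were the named probes with a detection p-value under 0.05 on both arrays of VE-821+RVX2135 or both arrays of VE-821. There were 10593 such probes among 23978 named probes and 25697 probes in all. They belong to 7645 genes of the 16593 with a named probe, of which 7639 entered the fit of 7947 genes through their brightest probe.

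BET proteins read acetylated histones at promoters and enhancers and recruit the elongation factor P-TEFb, which releases paused RNA polymerase. In B cells and their tumours they are known for keeping lineage genes and Myc-driven programmes active. ATR answers stalled replication forks, partly through the kinase encoded by Chek1, and its loss leaves cells that carry replication stress without that brake. The series asks whether inhibitors of the 2 kinds act together in Myc-driven lymphoma cells, and its title names apoptosis and DNA damage together with endoplasmic reticulum (ER) stress and the secretory programme of senescent cells.

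Between 11012 and 11478 probes were detected per array, replicate arrays correlated at 0.9949 to 0.9964 over the tested genes, and no pair held identical values. The rule kept 9268 probes through both groups, 542 through the VE-821+RVX2135 arrays only and 783 through the VE-821 arrays only. The last detection p-value inside the rule was 0.04887 and the first outside was 0.05013. Of the B cell markers on the array, Cd22, Cd79a, Cd79b, Ebf1 and Ptprc were detected, while Blk and Pax5 were not. None of 9 markers of T and NK cells, 7 of myeloid cells and 3 of erythroid cells and platelets was detected on both arrays of VE-821+RVX2135 or of VE-821, and of 7 markers of stroma and endothelium only Pecam1 was. Of the T and NK cell markers 3, namely Cd3d, Cd3g and Klrb1c, were detected on both DMSO arrays.

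After normalization, about as many genes were higher as were lower when RVX2135 was added to VE-821. The normalization gives all arrays the same distribution of values. The balance and the median difference over all genes were thus largely set in advance, and say nothing about total RNA. Before normalization between arrays, the median intensity of the tested genes was 114.3 and 97.8 with both drugs, against 127.8 and 132.8 with VE-821. Of the 7947 genes tested, 4031 were called, or 50.7%, and 1982 of these were higher (24.9%) and 2049 lower (25.8%) with both drugs than with VE-821. The shares of 24.9% higher and 25.8% lower are the background for each list count of this comparison below. Among the members, 1979 were higher, 2034 lower and 3626 not called. At least 2-fold differences were called for 316 higher genes (3.98%) and 414 lower genes (5.21%). The arrays of the groups did not overlap for 5958 genes, or 75%, and log2 differences had a standard error (SE) of 0.117 at the median. Values are normalized log2 intensities, and a call is an adjusted p under 0.05 by limma. Where both arrays of a group were not above background, the fold is a bound, written as at least N-fold. A gene that met the detection rule through only the group where it is brighter had to differ, so its values are given with no p-value and, in a list, its call is no support.

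**Figure D1:**
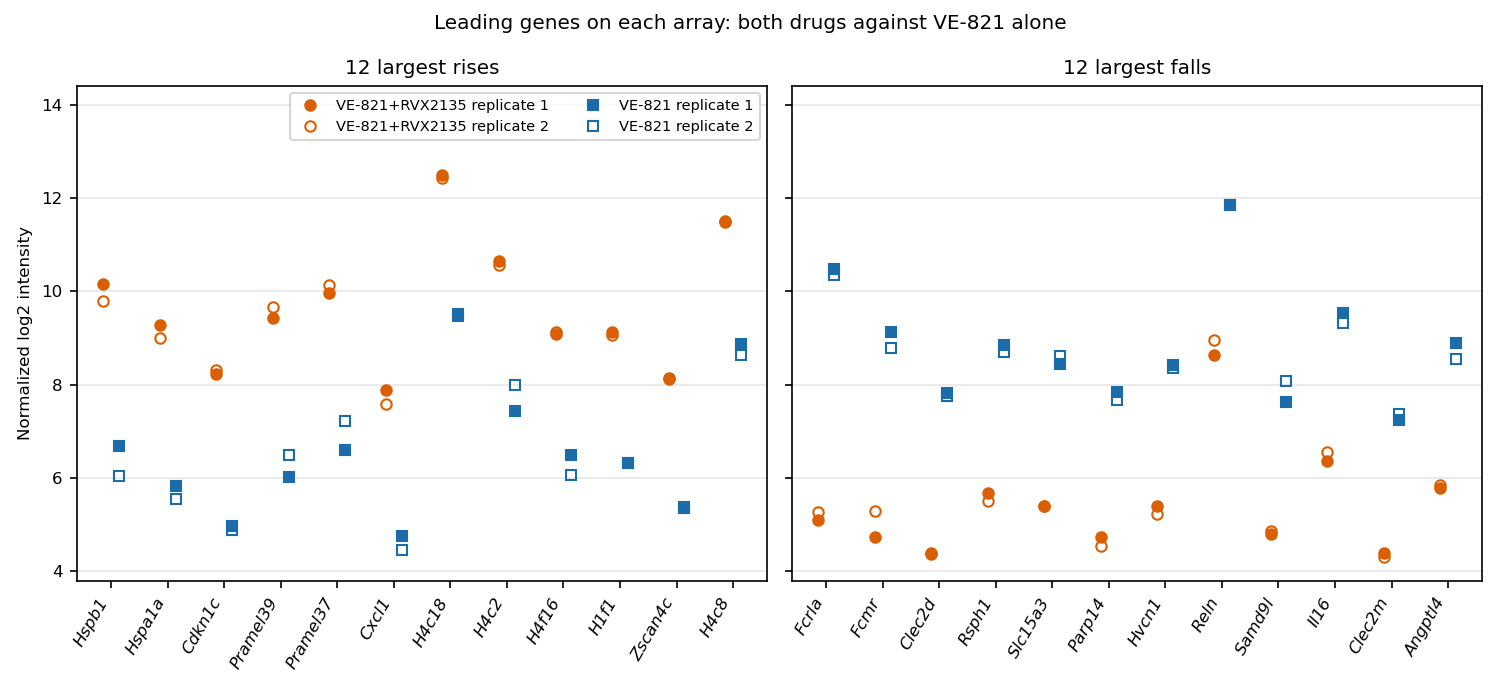
Normalized log2 intensity (vertical axis) of the 12 largest rises and the 12 largest falls on each VE-821+RVX2135 array (circles) and each VE-821 array (squares), with filled symbols for replicate 1 and open ones for replicate 2. For each of the 24 genes both circles lie on the same side of both squares, with log2 differences from 2.73 for H4c8 to 3.60 for Hspb1 among the rises and from -2.91 for Angptl4 to -5.23 for Fcrla among the falls. Clec2d and Clec2m were below background on both VE-821+RVX2135 arrays.

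The largest rises were in heat shock genes. Hspb1, the small heat shock protein HSP27, had 10.16 and 9.79 with VE-821+RVX2135, against 6.70 and 6.05 with VE-821. Hspa1a, an inducible HSP70, had 9.27 and 9.01 with both drugs, against 5.83 and 5.55 with VE-821. For both genes the 2 arrays with both drugs lay far above the 2 with VE-821. The log2 differences were 3.60 for Hspb1 (SE 0.19, 12.2-fold, adjusted p = 8.46e-08) and 3.45 for Hspa1a (SE 0.15, 10.9-fold, adjusted p = 3.06e-08). Of the 21 measured heat shock genes, which include mitochondrial chaperones such as Hspa9 and Hspd1, 14 were higher, 2 lower and 5 not called, with a median of 0.52, while the median of all members was 0.00. The higher genes include the cochaperone Dnajb1 (1.43, SE 0.10) and Hspa2 (1.29, SE 0.12), an HSP70 known from the testis. The 2 lower genes, named after their values were seen, were the cochaperones Fkbp4 (-0.79) and Hspbp1 (-0.76). With RVX2135 and no VE-821, 5 of the 21 were higher than with DMSO and 5 lower, with a median of -0.09. Over all tested genes 15% were higher and 15.4% lower in that difference, the background for each list count of RVX2135 against DMSO. The higher ones were Hspb1, Hspa1a, Dnajb2, Dnajb4 and Hsf2 and the lower ones Fkbp4, Hspbp1, Hspa4, Hspa9 and Hspd1, of which all but Hspb1 and Hspa1a were named after their values were seen.

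The promoters of Hspb1 and Hspa1a are shown because these genes had the largest rises and heat shock promoters carry a known sequence, the binding site of heat shock factor. Sequences are RefSeq promoters of build GRCm38.p6, 250 bases before to 50 bases after the gene start, 5′ to 3′ on the gene's strand. Capitals mark GAANNTTC, which reads the same on both strands.
Hspb1, chr5:135887669-135887968, plus strand: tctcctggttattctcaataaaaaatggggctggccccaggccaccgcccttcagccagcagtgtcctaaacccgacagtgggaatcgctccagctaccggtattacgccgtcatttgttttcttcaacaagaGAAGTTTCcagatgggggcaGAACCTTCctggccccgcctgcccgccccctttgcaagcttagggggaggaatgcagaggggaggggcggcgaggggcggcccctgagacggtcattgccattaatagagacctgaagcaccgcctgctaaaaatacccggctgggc
Hspa1a, chr17:34972107-34972406, minus strand: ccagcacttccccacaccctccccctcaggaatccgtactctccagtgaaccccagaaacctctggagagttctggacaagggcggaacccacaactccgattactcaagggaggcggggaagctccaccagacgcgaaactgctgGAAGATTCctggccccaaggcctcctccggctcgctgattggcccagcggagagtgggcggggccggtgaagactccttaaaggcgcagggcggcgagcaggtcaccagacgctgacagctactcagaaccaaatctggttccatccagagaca
The Hspb1 promoter holds 2 matches, at -117 to -110 and at -97 to -90 from the start, and the Hspa1a promoter holds 1, at -104 to -97. Promoters were matched for 18 of the 21 heat shock genes, and 9 of their 23 promoters hold GAANNTTC, or 39.1%, against 7.86% of all 32851 promoters. The longer form is in 5 of the 23, or 21.7%, against 0.603% of all promoters. Among promoters of members called higher 6.28% hold GAANNTTC, and among those of members called lower 6.0%. A match describes letters and does not show a bound site.

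Genes of the ER moved unevenly. Hspa5, which encodes the main ER chaperone BiP, had 9.08 and 9.38 with both drugs, against 7.54 and 7.66 with VE-821. That is a log2 difference of 1.63 (SE 0.12, 3.1-fold, adjusted p = 1.24e-06), and the groups do not overlap. Of 35 measured genes for ER chaperones and for the removal of misfolded ER proteins, 13 were higher, 8 lower and 14 not called, with a median of 0.16. The calreticulin gene Calr was 1.00 higher (SE 0.11). Sel1l, part of the machinery that removes misfolded proteins, was 1.10 higher (SE 0.11) by its brightest probe and 0.87 higher by another, while a further probe gave -0.06 and was not called. Tram1, part of the translocation channel, was lower by its brightest probe (-1.94, SE 0.14) and by another (-1.97), while a further probe gave -0.14 and was not called. The count of 8 lower genes was 5 without either VE-821+RVX2135 replicate in turn, 5 without VE-821 replicate 1 and 4 without VE-821 replicate 2.

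The promoter of Hspa5 is shown because it holds the full ER stress element, CCAAT and CCACG with 9 bases between them, given here in capitals and searched on both strands.
Hspa5, chr2:34771840-34772139, plus strand: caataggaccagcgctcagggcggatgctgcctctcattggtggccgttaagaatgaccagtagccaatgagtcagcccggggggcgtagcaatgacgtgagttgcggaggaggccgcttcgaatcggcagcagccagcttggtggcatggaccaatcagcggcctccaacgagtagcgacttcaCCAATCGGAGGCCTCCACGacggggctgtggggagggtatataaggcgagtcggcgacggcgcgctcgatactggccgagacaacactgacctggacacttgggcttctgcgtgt
The match lies at -65 to -47 from the start. Of the 30 promoters matched to 29 of the 35 ER genes, 7 hold this element, or 23.3%, against 0.119% of all promoters. It overlaps the shorter motif CCAAT by construction.

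The ER stress pathway also contains the ATF4 and CHOP branch, which reprogrammes amino acid metabolism. Ddit3, which encodes CHOP, had 11.86 and 11.75 with both drugs, against 9.03 and 9.42 with VE-821, and rose by 2.58 (SE 0.18, 5.97-fold, adjusted p = 6.47e-07). Atf4 itself was 0.61 higher (SE 0.12, adjusted p = 0.00129). Atf3, a stress factor, rose by 1.83 (SE 0.14), and Ppp1r15a, which restores translation after stress, by 1.46 (SE 0.13). Yet of the 40 measured ATF4 and CHOP targets, 11 were higher, 12 lower and 17 not called, and their median was -0.08. The shares, 27.5% higher and 30% lower, were near the 24.9% and 25.8% of all tested genes. The amino acid transporter gene Slc38a2 was 1.02 higher by its brightest probe, whereas its other probes gave -0.08 and -0.13 and were not called. The 12 lower targets became 8 without VE-821+RVX2135 replicate 2, and the 11 higher became 7 with the authors' normalized values.

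Most histone genes, which package newly copied DNA, were higher with both drugs. H4c18, a gene for histone H4, had 12.49 and 12.43 with both drugs, against 9.46 and 9.52 with VE-821. H4c2, another H4 gene, had 10.64 and 10.57 with both drugs, against 7.43 and 8.00 with VE-821. In each case the arrays with both drugs were far above the others, with log2 differences of 2.97 (SE 0.13, 7.81-fold, adjusted p = 3.4e-08) and 2.89 (SE 0.17, 7.43-fold, adjusted p = 1.69e-07). The linker histone gene H1f1 had 9.12 and 9.07 with both drugs, against 6.32 and 6.32 with VE-821, a difference of 2.78 (SE 0.11, adjusted p = 2.28e-08). Of 47 measured linker and core histone genes, 39 were higher, 0 lower and 8 not called, with a median of 1.60. With RVX2135 against DMSO, 36 of the 47 were higher and 3 lower, with a median of 1.34, the 3 being H2ac7, H2ac12 and H2ac15, named after their values were seen. H2bc3 (2.44, SE 0.11) and H3c4 (2.38, SE 0.10) complete the genes named for this list, and H4c8 (2.73) and H4f16 (2.83), an H4 gene outside the list, stood among the 12 largest rises. Histone genes are close copies of each other and may be read by the same probe, so values of single ones are uncertain. Replacement variants divided differently. Of 9 measured, H1f10 (1.10), H3f3b (0.75) and H2aw (0.76) were higher, and 2 were not called. The 4 lower were H2aj (-0.96), Macroh2a1 (-0.79), Cenpa (-0.41) and H2az1 (-0.36). Without VE-821+RVX2135 replicate 1 the lower count was 2. H2aw, Cenpa and H2az1 were named after their values were seen.

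The H1f1 promoter is shown as an example of a histone promoter that holds both searched core elements, CCAAT and TATAAA, here in capitals.
H1f1, chr13:23763418-23763717, plus strand: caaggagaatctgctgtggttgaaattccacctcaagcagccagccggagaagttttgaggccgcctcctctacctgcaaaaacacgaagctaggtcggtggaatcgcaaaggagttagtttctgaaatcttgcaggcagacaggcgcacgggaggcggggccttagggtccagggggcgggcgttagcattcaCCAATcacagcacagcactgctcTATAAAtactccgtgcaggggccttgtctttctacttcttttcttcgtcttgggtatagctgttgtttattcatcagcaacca
The elements lie at -56 to -52 and at -33 to -28 from the start. Of the 43 promoters matched to 43 of the 47 histone genes, 36 hold CCAAT on either strand, or 83.7%, and 27 hold TATAAA, or 62.8%, against 37.4% and 13.6% of all promoters. Among promoters of members called higher, 40.7% hold CCAAT and 7.77% hold TATAAA, and among those of members called lower the shares are 35.4% and 6.77%.

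**Figure D2:**
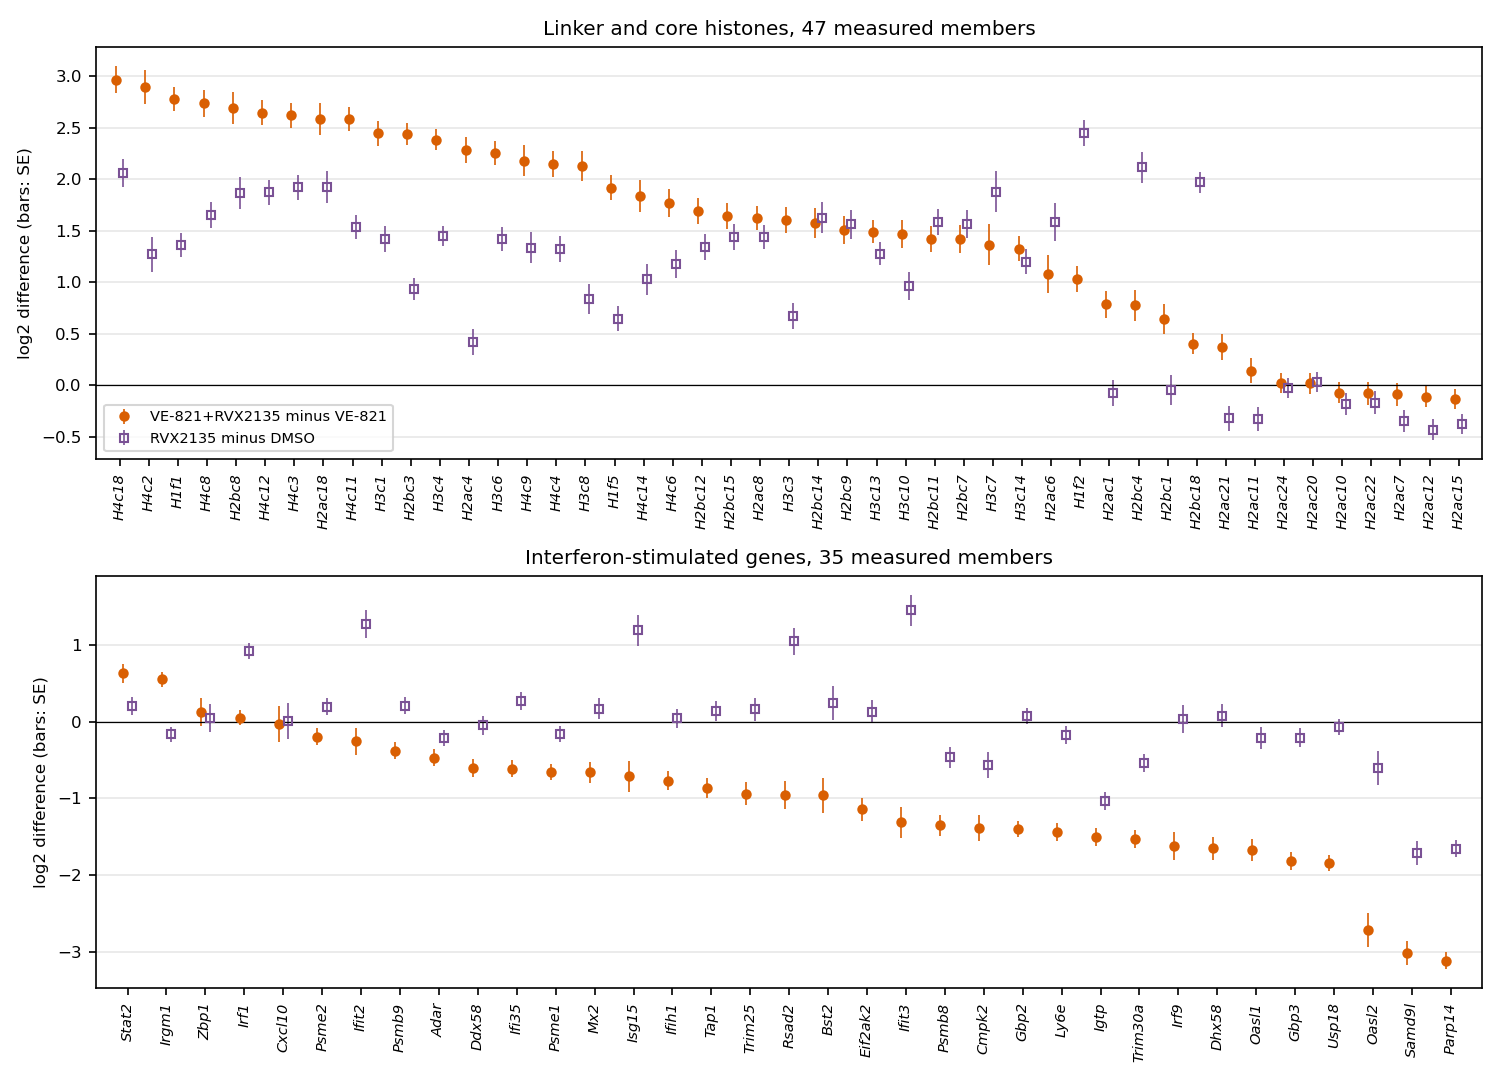
Log2 difference with its SE (vertical axes) for each measured histone gene (upper panel) and each measured interferon-stimulated gene (lower panel), for VE-821+RVX2135 minus VE-821 (circles) and RVX2135 minus DMSO (squares). Circles lie above 0 for most histone genes, with a median of 1.60, and below 0 for most interferon-stimulated genes, with a median of -0.96. Squares have medians of 1.34 and 0.04, and genes below background in a group are drawn at their fitted value.

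Interferon-stimulated genes went the opposite way. These genes answer type I and type II interferon and restrict viruses. Parp14, a mono-ADP-ribosyltransferase, had 4.73 and 4.55 with both drugs, with only 1 of these arrays above background, against 7.84 and 7.67 with VE-821. Samd9l, an interferon-induced growth inhibitor, had 4.81 and 4.87 with both drugs, against 7.64 and 8.08 with VE-821. The groups do not overlap for either gene, with log2 differences of -3.12 for Parp14 (SE 0.11) and -3.02 for Samd9l (SE 0.16, adjusted p = 7.88e-08). The protease gene Usp18, a brake on interferon signalling, fell below background on both arrays with both drugs and was at least 3.28-fold lower, and the guanylate-binding protein gene Gbp3 was 1.82 lower on the log2 scale (-1.82, SE 0.12). Of 35 measured members, 28 were lower, 2 higher and 5 not called, with a median of -0.96. Through the VE-821 arrays only, 10 of the 35 passed the rule. A setting that requires detection on all 8 arrays, used here and below, drops the members not detected on each of them. Its counts are thus over fewer members, and a smaller count need not mean lost calls. In that setting 18 were lower. The 2 higher members, named after their values were seen, were Stat2 (0.63) and Irgm1 (0.55). With RVX2135 against DMSO, 5 of the 35 were higher and 6 lower, with a median of 0.04, shares near the background of 15% and 15.4%. The 5 higher were Ifit3 (1.45) and, named after their values were seen, Ifit2 (1.27), Isg15 (1.19), Rsad2 (1.05) and Irf1 (0.92). The chemokine gene Cxcl10 had 9.47 and 8.89 with both drugs, against 9.23 and 9.18 with VE-821, and did not pass the test (-0.03, SE 0.24, adjusted p = 0.923).

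Antigen presentation genes were lower as well. Of 23 measured genes of MHC class I and II, 17 were lower, 2 higher and 4 not called, and their median was -0.90, or -0.87 at the bounds. H2-Ab1, a class II chain, had 4.55 and 4.91 with both drugs, with 1 of these arrays above background, against 6.85 and 6.82 with VE-821. Its log2 difference was -2.11 (SE 0.14). H2-Aa, its partner chain, was at least 3.24-fold lower, the invariant chain gene Cd74 had a difference of -1.62 (SE 0.10), and the immunoproteasome subunit gene Psmb10 one of -1.78 (SE 0.13). The higher members, named after their values were seen, were H2-D1 (0.58) and Rfxap (0.81). Of the 23, 7 passed the rule through VE-821 only. Among those detected on all 8 arrays 10 were lower.

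Genes of the B lineage include the largest falls of all tested genes. Fcrla, a B cell protein related to Fc receptors, had 5.11 and 5.27 with both drugs, against 10.48 and 10.36 with VE-821. Fcmr, the Fc receptor for IgM, had 4.74 and 5.28 with both drugs, against 9.12 and 8.79 with VE-821. The arrays of the groups lie far apart, with log2 differences of -5.23 for Fcrla (SE 0.12, 37.5-fold lower, adjusted p = 5.37e-10) and -3.95 for Fcmr (SE 0.18, 15.4-fold lower, adjusted p = 3.06e-08). Blnk, the adaptor that links the B cell receptor to its downstream enzymes, had 6.35 and 6.37 with both drugs, against 8.83 and 8.66 with VE-821 (-2.39, SE 0.12, adjusted p = 5.78e-08). Of 30 measured B lineage genes, 25 were lower, 2 higher and 3 not called, with a median of -1.36, and with RVX2135 against DMSO 18 were lower and 4 higher, with a median of -0.66. The 4, named after their values were seen, were Bcl6, Foxo1, Bcl11a and Rag1. The 2 higher genes, named after their values were seen, were the germinal centre repressor gene Bcl6 (0.83) and Foxo1 (0.55). Of the 30, 3 passed the rule through the VE-821 arrays only. Ikzf1, which encodes the lymphoid factor Ikaros, was -2.46 by its brightest probe, and its other probe gave -0.42 and was not called. In bulk samples, fewer cells of a type and less RNA per cell cannot be told apart.

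All 5 detected B cell markers were lower with both drugs, and their summed background-subtracted intensity was 641 and 568.4, against 3305.3 and 2801.5 with VE-821. The B cell receptor subunits Cd79a (-1.55, SE 0.11) and Cd79b (-2.22, SE 0.12) and the inhibitory receptor Cd22 (-2.48, SE 0.16) were among them. Markers of T and NK cells summed to 18.5 and 14.8 with both drugs, against 29.9 and 32.4 with VE-821, none of them detected on both arrays of either group. The part of the cell makeup in these falls was not tested. Of 12 measured plasma cell genes, 9 were lower, 1 higher and 2 not called, and their median was -0.61, or -0.58 at the bounds. The plasma cell factor gene Irf4 was -1.99 (SE 0.11), Fkbp11 -2.03 (SE 0.13), and Slamf7, a surface receptor, at least 3.87-fold lower. The higher one was Edem1 (0.90), named after its value was seen, and the higher count was 2 without VE-821+RVX2135 replicate 2. Of the 12 plasma cell genes, 3 passed the rule through the VE-821 arrays only, and among those detected on all 8 arrays 5 were lower.

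The other large falls belong to varied genes. Reln, which encodes the secreted protein reelin, had 8.64 and 8.96 with both drugs, against 11.85 and 11.84 with VE-821 (-3.05, SE 0.15). Rsph1, a component of cilia, was -3.19 (SE 0.11), Slc15a3, a peptide transporter of lysosomes, -3.13 (SE 0.11), and Hvcn1, a proton channel of B cells, -3.07 (SE 0.10). The cytokine gene Il16 had a difference of -2.96 (SE 0.12) and Angptl4, a lipase inhibitor, one of -2.91 (SE 0.16). Genes detected on both VE-821 arrays and on neither array with both drugs were led by Clec2d, a ligand of an NK cell receptor, which was at least 8.65-fold lower. Clec2m was at least 6.19-fold lower, Zc3h12d, an RNA-degrading regulator of immune transcripts, at least 5.88-fold, the adaptor gene Sla at least 4.59-fold, Calhm6 at least 4.19-fold and Slc39a4, a zinc importer, at least 3.98-fold. They were named for that difference in detection, which is a description with no test.

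A set of genes otherwise known from the 2-cell embryo and from the PRAME-like family became detectable or brighter. Zscan4c, a marker of the 2-cell stage, had 8.12 and 8.15 with both drugs, against 5.36 and 5.38 with VE-821, and was above background on no RVX2135 and no DMSO array. Pramel39 had 9.44 and 9.68 with both drugs, against 6.03 and 6.49 with VE-821. The arrays with both drugs were the highest of all 8 for both genes, and the differences were 2.77 (SE 0.10, 6.81-fold, adjusted p = 8.99e-09) and 3.30 (SE 0.15, 9.85-fold, adjusted p = 3.85e-08). Pramel37 was 3.14 higher (SE 0.21) and Tdpoz2 1.79 higher, while Usp17la was at least 3.73-fold and Pramel31 at least 3.5-fold higher, both below background with VE-821. Of 18 measured members 15 were higher, 2 lower and 1 not called, and their median was 1.27, or 0.92 at the bounds. Since 10 of the 18 passed the rule only through the arrays with both drugs, those had to differ. Among the members detected on all 8 arrays 1 was higher. The 2 lower members, named after their values were seen, were Eif1ad (-1.21) and Sp110, which was below background on both arrays with both drugs and at least 1.7-fold lower. These families hold near-identical copies whose probes may not tell them apart. With RVX2135 against DMSO 0 of the 18 were higher and 1, Eif1ad, lower.

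Secreted factors of the senescence-associated programme were mostly not measured: 17 of 60 genes on the array were members. Of these 8 were higher, 5 lower and 4 not called, and their median was 0.16, or 0.11 at the bounds. Of the 17, 4 passed the rule only through the arrays with both drugs, Cxcl1 and Cxcl2 among them, so their calls are no support. The chemokine gene Cxcl1 had 7.88 and 7.59 with both drugs, against 4.76 and 4.46 with VE-821, where 1 array was above background (3.13, SE 0.13, 8.73-fold). Cxcl2, detected only on the arrays with both drugs, was at least 4.23-fold higher. The chemokine gene Ccl4 was 1.08 higher (SE 0.12). Ccl5, by contrast, had 7.26 and 6.80 with both drugs, against 8.19 and 7.87 with VE-821 (-1.0, SE 0.17, adjusted p = 0.000537). The other 4 lower genes were Angptl4 (-2.91) and, named after their values were seen, Tgfb1 (-0.97), Mif (-0.73) and Csf1 (-0.57). The 8 higher genes became 5 without VE-821 replicate 1, and 2 when detection was required on all 8 arrays. That count of 2 covers only the members detected on every array. Other genes that became detectable with both drugs were Mest, an imprinted gene (at least 4.11-fold), Spsb1 (at least 3.94-fold) and the POU factor gene Pou3f1 (at least 3.66-fold).

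Regulators of the cell cycle changed in both directions. Cdkn1c, which encodes the CDK inhibitor p57, had 8.23 and 8.31 with both drugs, against 4.97 and 4.88 with VE-821 (3.34, SE 0.12, 10.2-fold, adjusted p = 1.09e-08). Ccnd1, which encodes cyclin D1, had 7.41 and 7.50 with both drugs, against 9.81 and 9.59 with VE-821 (-2.24, SE 0.11, 4.73-fold lower, adjusted p = 5.98e-08). Neither gene's groups overlap. The CDK inhibitor genes Cdkn2b (1.27, SE 0.11), Cdkn2d (1.26, SE 0.13) and Cdkn1a (0.72, SE 0.11) were higher too. Over 24 CDK inhibitors, cyclins and pocket proteins, 9 were higher, 8 lower and 7 not called.

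About as many S phase genes were lower as were not called or higher. Of 50 measured, 26 were lower, 2 higher and 22 not called, with a median of -0.32, against 41 lower, 0 higher and a median of -0.60 for RVX2135 minus DMSO. The interaction was called for 14 of the 50, of which 12 were positive and 2, Tk1 and Orc3, negative, Orc3 being named after its value was seen. The thymidine kinase gene Tk1 had 7.46 and 7.58 with both drugs, against 9.16 and 8.84 with VE-821 (-1.48, SE 0.12, adjusted p = 2.02e-06). Uhrf1, a maintenance factor of DNA methylation, was -1.09 (SE 0.11), and the chromatin assembly factor gene Chaf1b -1.01 (SE 0.13). The higher genes were Orc6 (0.38) and E2f1 (0.28), named after their values were seen. The higher count was 0 without VE-821 replicate 2, and 1 without VE-821+RVX2135 replicate 1, VE-821+RVX2135 replicate 2, VE-821 replicate 1, DMSO replicate 1 or DMSO replicate 2. In the G2 and mitosis list 10 of 38 were lower, 2 higher and 26 not called. The lower share, 26.3%, was near the 25.8% of all tested genes. Cdc25b, the phosphatase that opens mitosis, was -0.81 (SE 0.11). The 2 higher, Cdc25c (0.44) and Tpx2 (0.34), named after their values were seen, became 4 without VE-821+RVX2135 replicate 1, 0 without VE-821+RVX2135 replicate 2 and 1 without VE-821 replicate 1.

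Among 48 measured genes of ATR-CHK1 signalling and DNA repair, 15 were lower, 8 higher and 25 not called, with a median of -0.18. That is 31.2% lower and 16.7% higher, against 25.8% and 24.9% of all tested genes. Chek1 was -0.65 by its brightest probe (SE 0.11, adjusted p = 0.000633), and its other probe gave -0.23 and was not called. Hus1, part of the clamp that activates ATR, was -0.81 (SE 0.12), and Xrcc6, the Ku70 subunit of end joining, -0.81 (SE 0.10). Xpc, a sensor of nucleotide excision repair, was 1.04 higher (SE 0.13). Without VE-821 replicate 2 the lower count was 9, and without VE-821 replicate 1 the higher count was 4. Of 31 measured p53 targets 13 were higher, 9 lower and 9 not called, with the growth arrest genes Gadd45a at 2.10 (SE 0.15) and Gadd45b at 1.83 (SE 0.15) and the antiproliferative gene Btg1 at 1.08 (SE 0.11).

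Genes of apoptosis gave a mixed record across probes. Bcl2l11, which encodes the killer protein BIM, was -0.88 by its brightest probe (adjusted p = 4.06e-05) and -0.83 by another, while 2 further probes gave 0.78 and 0.74 and were called higher. Bbc3, which encodes PUMA, had 10.01 and 9.89 with both drugs, against 10.37 and 10.35 with VE-821 (-0.41, SE 0.14, adjusted p = 0.0304), a call lost in 8 of the alternatives, and its other probes were not called. Pmaip1, which encodes NOXA, was -0.68 (adjusted p = 0.000519) by its brightest probe and -0.37 and not called by the other. Its call was lost with quantile normalization and no background correction (-0.83, adjusted p = 0.0658) and with the authors' normalized values (-0.81, adjusted p = 0.0834). Over 19 measured pro-apoptotic genes 10 were lower, 2 higher and 7 not called, but 5 were lower without VE-821+RVX2135 replicate 1, 5 without VE-821 replicate 1 and 6 without VE-821 replicate 2. The 2 higher were Tnfrsf10b (0.43) and Casp6 (0.35), named after their values were seen, and 1 was higher in each of 3 such fits, without VE-821+RVX2135 replicate 1, VE-821+RVX2135 replicate 2 or VE-821 replicate 1. The survival gene Mcl1 had 11.31 and 11.21 with both drugs, against 11.75 and 11.72 with VE-821 (-0.48, SE 0.11, adjusted p = 0.00298).

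Among the genes that encode BET readers and factors of transcription elongation, Brd2, a BET reader, had 11.66 and 11.58 with both drugs, against 10.43 and 10.44 with VE-821 (1.19, SE 0.11, adjusted p = 4.9e-06). Hexim1, which holds P-TEFb inactive and often serves as a marker of BET inhibition, had 6.21 and 6.04 with both drugs, against 6.24 and 6.06 with VE-821, and was not called (-0.03, SE 0.11, adjusted p = 0.845). Its groups overlap. The elongation factor genes Ctr9 (0.83, SE 0.10) and Ccnt1 (0.73, SE 0.12) and the kinase gene Cdk13 (0.56, SE 0.11) were higher, and in all 12 of 24 measured genes of this list were higher, 3 lower and 9 not called. The 3 lower, Aff1 (-0.30), Nelfcd (-0.32) and Med12 (-0.42), were named after their values were seen. Their count was 1 without VE-821+RVX2135 replicate 1, VE-821+RVX2135 replicate 2 or VE-821 replicate 2, and 0 without VE-821 replicate 1. Myc had 7.04 and 6.80 with both drugs, against 6.74 and 6.66 with VE-821, and did not pass the test (0.23, SE 0.12, adjusted p = 0.123). Whether this probe reads the Myc gene that drives these lymphoma cells was not tested. Max, the partner of Myc, was -0.71 by its brightest probe, with its other probe at -0.17 and not called. The paralogue Mycl was at least 1.83-fold lower and was above background on no RVX2135 and no DMSO array. Of 53 measured genes of ribosome biogenesis and growth linked to Myc, 23 were lower, 5 higher and 25 not called, with the nucleolar gene Pes1 at -1.27 (SE 0.10) and the pyrimidine synthesis gene Cad at -0.70 (SE 0.11). The 5 higher, named after their values were seen, were Noc3l (0.70), Hspe1 (0.52), Rrp12 (0.52), Polr1c (0.38) and Rrs1 (0.33). The lower count was 14 without VE-821 replicate 1. The higher count was 3 without VE-821+RVX2135 replicate 1, VE-821 replicate 1 or VE-821 replicate 2.

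**Figure D3:**
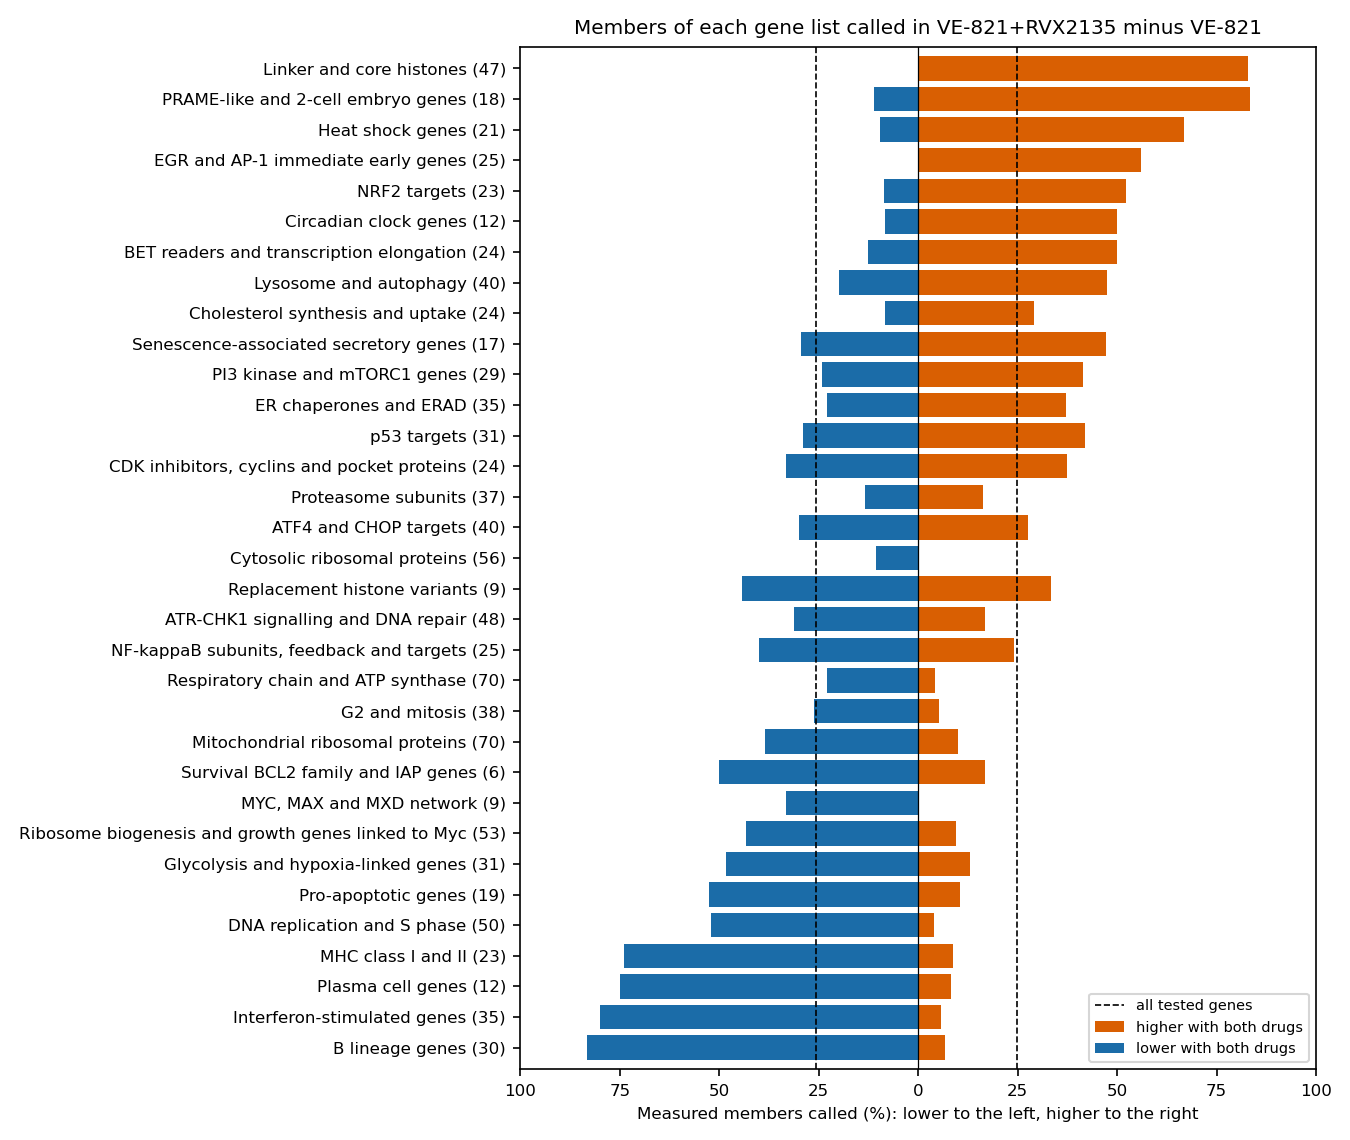
Share of measured members of each gene list (rows, number measured in brackets) called higher (bars to the right, in %) or lower (bars to the left, in %) in VE-821+RVX2135 minus VE-821, for lists with at least 6 measured members. Dashed lines mark the shares over all tested genes, 24.9% higher and 25.8% lower, and histone genes, with 39 of 47 higher, and B lineage genes, with 25 of 30 lower, lie at the ends, as rows are ordered by the share higher minus the share lower.

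Immediate early genes were higher in 14 of 25 cases and lower in 0, with a median of 0.57. Jund, an AP-1 subunit, had 9.0 and 8.58 with both drugs, against 6.36 and 6.56 with VE-821 (2.32, SE 0.14, adjusted p = 2.29e-07). Fos rose by 1.81 (SE 0.13) and Klf4 by 1.39 (SE 0.10). Without VE-821+RVX2135 replicate 1 the lower count was 1. In the NF-kappaB list 10 of 25 were lower, 6 higher and 9 not called. The higher share, 24%, was near the 24.9% of all tested genes, and the lower share was 40%, against 25.8%. Ltb, a TNF-family ligand, was at least 3.02-fold lower and the activation marker Cd83 at least 2.57-fold lower. Both were above background on the VE-821 arrays only, and on no RVX2135 and no DMSO array. The feedback inhibitor gene Nfkbid was -1.26 (SE 0.14). The list had 6 lower genes with the authors' normalized values and 5 among the members detected on all 8 arrays. Of 12 clock genes 6 were higher, 1 lower and 5 not called, led by Nfil3, a repressor of clock output, which had 10.18 and 10.02 with both drugs, against 7.44 and 7.48 with VE-821 (2.64, SE 0.10, adjusted p = 1.96e-08). The lower gene was Per2 (-0.41), named after its value was seen, and the lower count was 0 without VE-821+RVX2135 replicate 2 or VE-821 replicate 2 and 2 without VE-821 replicate 1, RVX2135 replicate 1 or RVX2135 replicate 2.

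Counts of the metabolic lists stand beside 24.9% higher and 25.8% lower over all tested genes. Of 31 genes of glycolysis and the hypoxia response 15 were lower, 4 higher and 12 not called, with the glucose transporter gene Slc2a3 at -1.30 (SE 0.12), the pyruvate dehydrogenase kinase gene Pdk1 at -0.92 (SE 0.10) and the stress gene Ndrg1 at 1.91 (SE 0.10). The other 3 higher genes, named after their values were seen, were Kdm3a (0.67), Pfkfb4 (0.46) and Slc2a1 (0.81). Of 24 cholesterol genes 7 were higher (29.2%), 2 lower (8.33%) and 15 not called, against 14 higher and 0 lower for RVX2135 minus DMSO. The 2 lower were Stard4 and Scd1 (-0.89), the second named after its value was seen. Mvd, an enzyme of the mevalonate pathway, was 0.91 higher (SE 0.17), and Stard4, a sterol carrier, was -0.73 (SE 0.10). Of 40 lysosome and autophagy genes 19 were higher and 8 lower, with Atg12, part of the autophagosome machinery, at 1.54 (SE 0.12) and Gusb, a lysosomal glucuronidase, at -2.01 (SE 0.11). Of 23 targets of NRF2, the factor of the oxidative stress response, 12 were higher and 2 lower, with Taldo1, an enzyme of the pentose phosphate pathway, at 0.86 (SE 0.10). The lower count was 1 without VE-821+RVX2135 replicate 1, VE-821 replicate 1 or VE-821 replicate 2, and the 2 genes, named after their values were seen, were Fth1 (-0.33) and Keap1 (-0.65). Cytosolic ribosomal protein genes were mostly not called, with 6 of 56 lower and 0 higher. Of 70 mitochondrial ribosomal protein genes 27 were lower and 7 higher, led by Mrpl34 at -1.04 (SE 0.10), and the higher count was 2 without VE-821 replicate 1, 3 without VE-821 replicate 2 and 4 without VE-821+RVX2135 replicate 1.

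To see where the RVX2135 response was unlike with and without VE-821, the differences VE-821+RVX2135 minus VE-821 and RVX2135 minus DMSO were set side by side. They share no arrays. Over the 7639 members they correlated at Pearson 0.564 and Spearman 0.483, with the same sign for 5039 genes (66%), a description across genes, which are not independent replicates. The spread of the log2 differences was wider with VE-821, with an SD over members of 0.637 against 0.432 without it, at the same median SE of 0.116. RVX2135 without VE-821 called 2420 of 7947 genes, or 30.5%. The interaction, which is the first difference minus the second, was called for 2272 of 7947 genes, or 28.6%, with 1040 positive (13.1%) and 1232 negative (15.5%). At least 2-fold, RVX2135 minus DMSO had 141 higher (1.77%) and 124 lower genes (1.56%), and the interaction 181 positive (2.28%) and 273 negative ones (3.44%). These counts lean on single arrays: the 1196 higher and 1224 lower genes of RVX2135 minus DMSO became 705 and 721 without DMSO replicate 1 and 739 and 736 without RVX2135 replicate 2, and the positive interactions became 691 without DMSO replicate 1. Of the members, 1387 were called in the same direction in both differences, and the interaction made 326 of these larger with VE-821 and 52 smaller. A further 170 members were called in opposite directions.

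**Figure D4:**
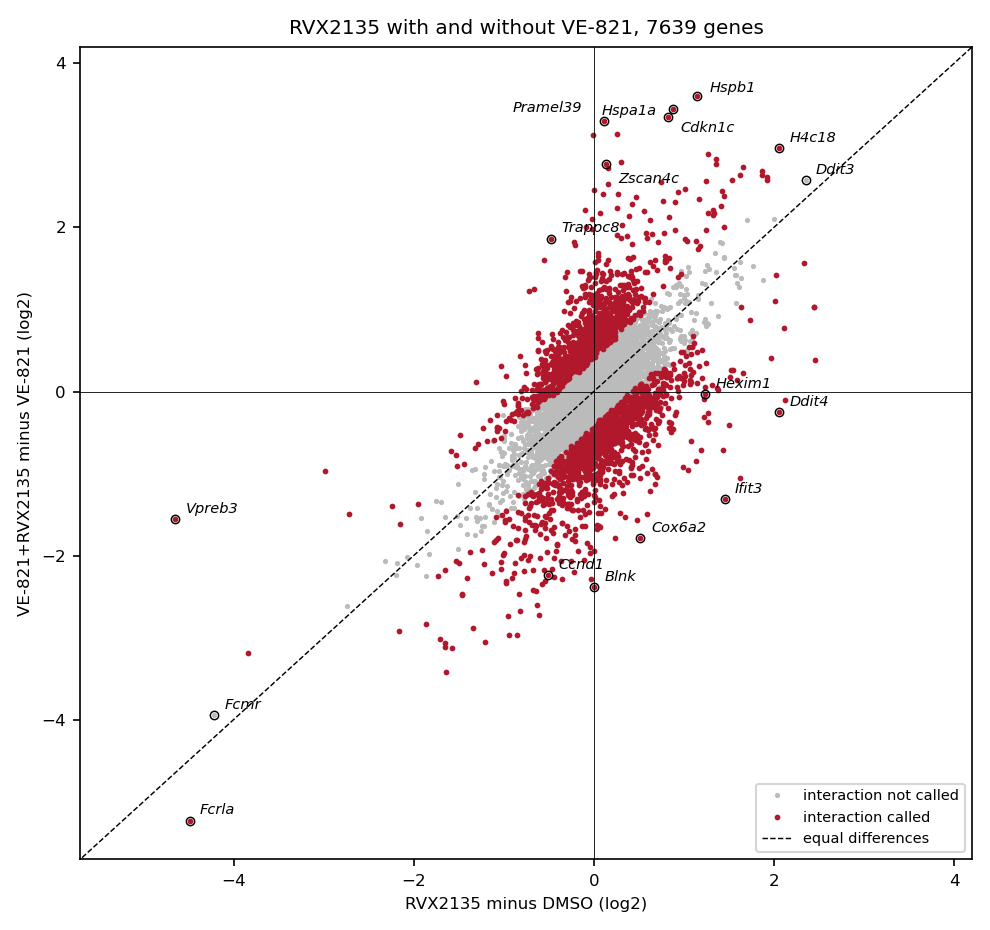
Log2 difference VE-821+RVX2135 minus VE-821 (vertical axis) against RVX2135 minus DMSO (horizontal axis) for each of the 7639 genes, with genes whose interaction was called in red and a dashed line where both differences are equal. Fcmr and Ddit3 lie near the line. Zscan4c and Blnk lie away from 0 on the vertical axis only and Hexim1 on the horizontal axis only.

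For some of the leading genes the interaction was not called. Fcmr was -4.21 for RVX2135 minus DMSO, with an interaction of 0.27 (SE 0.25, adjusted p = 0.446). Ddit3 was 2.35 without VE-821 (interaction 0.23, SE 0.25, adjusted p = 0.536), and Gadd45a was 2.00 (interaction 0.11, adjusted p = 0.743). Neither Atf4 (interaction -0.23, adjusted p = 0.332) nor Myc (interaction -0.18, adjusted p = 0.429) passed the interaction test. A p that misses the threshold does not show equal responses.

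Several heat shock genes rose more with VE-821 than without it. Hspb1 had 6.81 and 6.91 with RVX2135, against 5.61 and 5.80 with DMSO, and its interaction was 2.45 (SE 0.27, adjusted p = 0.000111). Hspa1a had 5.68 and 5.26 with RVX2135 and was not above background on either DMSO array (interaction 2.57, SE 0.22, adjusted p = 2.36e-05). The interaction was positive for 12 of the 21 heat shock genes and negative for 0. Hspa5 followed the same order, with 7.49 and 7.69 with RVX2135, against 7.19 and 7.22 with DMSO (interaction 1.25, SE 0.17, adjusted p = 0.00054). Cdkn1c had 6.01 and 5.78 with RVX2135, against 4.94 and 5.20 with DMSO (interaction 2.52, SE 0.17, adjusted p = 9.02e-06). The histone interactions were positive for 24 of 47 genes, among them 1.62 for H4c2 (SE 0.24, adjusted p = 0.000669) and 1.41 for H1f1 (SE 0.16, adjusted p = 0.000132), the H1f1 call being lost with the authors' normalized values (0.62). They were negative for 3, named after their values were seen: H1f2 (-1.41), H2bc4 (-1.34) and H2bc18 (-1.57).

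The 6 largest positive interactions were of Pramel39 (3.19, SE 0.22), Cxcl1 (3.13, SE 0.19), Vpreb3 (3.09, SE 0.21), Pramel37 (2.88, SE 0.29), Zscan4c (2.64, SE 0.14) and Zbtb2 (2.58, SE 0.16). Cxcl1 and Zscan4c were above background on no RVX2135 and no DMSO array, so their RVX2135 difference without VE-821 has no measured size. Pramel39 was below background on both DMSO arrays and 1 RVX2135 array. Vpreb3, which assists assembly of the pre-B cell receptor, had 5.10 and 5.41 with both drugs, 7.04 and 6.59 with VE-821, 4.46 and 4.49 with RVX2135, both below background, and 9.08 and 9.16 with DMSO. It was lower in both differences, by -1.56 with VE-821 and by more without it, and its VE-821 level lay under its DMSO level. Zbtb2, a zinc finger repressor, had 10.16 and 10.23 with both drugs, against 7.51 and 7.41 with VE-821, while the RVX2135 arrays had 7.21 and 7.00 and the DMSO arrays 6.86 and 7.04.

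The 6 largest negative interactions were of Ifit3 (-2.77, SE 0.29), Lrrc14b (-2.68, SE 0.30), Blnk (-2.39, SE 0.17), Ddit4 (-2.31, SE 0.19), Cox6a2 (-2.30, SE 0.14) and St3gal6 (-2.25). Blnk had 8.93 and 8.64 with RVX2135, against 8.80 and 8.77 with DMSO, so only the cells given both drugs were low. St3gal6, a sialyltransferase, showed the same order, with 5.10 and 4.91 with both drugs, 7.28 and 7.30 with VE-821, 7.59 and 7.68 with RVX2135 and 7.62 and 7.73 with DMSO. Ddit4, an mTORC1 inhibitor induced by stress, had 7.07 and 7.16 with both drugs, against 7.26 and 7.49 with VE-821, while it had 8.41 and 8.77 with RVX2135, against 6.50 and 6.57 with DMSO. Hexim1 had 7.89 and 7.85 with RVX2135, against 6.62 and 6.65 with DMSO, so it rose without VE-821 (1.23) and was not called with it (interaction -1.26, SE 0.15, adjusted p = 0.000207). Ccnd1 fell with VE-821 more than without it, with 9.82 and 9.68 with RVX2135, against 10.26 and 10.26 with DMSO (interaction -1.73, SE 0.16, adjusted p = 3.82e-05), and the same held for Il16 (interaction -2.12, SE 0.16, adjusted p = 1.81e-05).

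**Figure D5:**
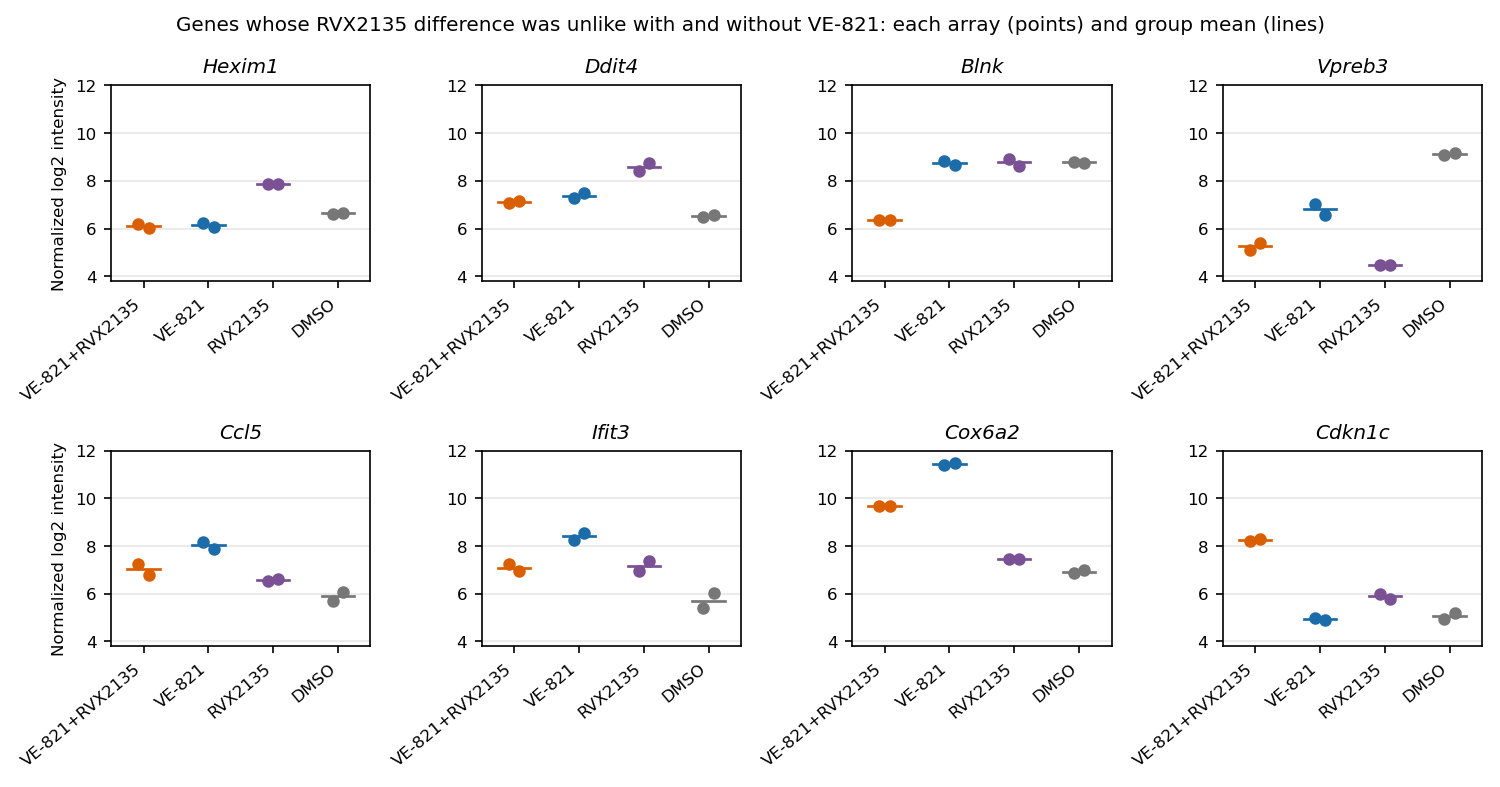
Normalized log2 intensity (vertical axis) of 8 genes on each array (points), with group means (lines), for VE-821+RVX2135, VE-821, RVX2135 and DMSO from left to right. Hexim1 and Ddit4 are highest with RVX2135, Blnk is low only with both drugs, Cdkn1c is highest with both drugs, and Ccl5, Ifit3 and Cox6a2 are highest with VE-821.

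Of the 170 members called in opposite directions, the 6 with the largest interaction were Ifit3, Lrrc14b, Trappc8, Cox6a2, Gal3st2 and Tuft1. Ifit3, an antiviral interferon-stimulated gene, had 7.26 and 6.95 with both drugs, against 8.28 and 8.56 with VE-821 (-1.31, adjusted p = 0.000267), and 6.95 and 7.36 with RVX2135, against 5.40 and 6.01 with DMSO (1.45, adjusted p = 0.000362). Its levels with both drugs and with RVX2135 thus overlap. Cox6a2, the muscle form of a cytochrome c oxidase subunit, had 9.66 and 9.66 with both drugs, against 11.41 and 11.48 with VE-821 (-1.79), and 7.45 and 7.44 with RVX2135, against 6.87 and 6.99 with DMSO (0.52). Lrrc14b was -1.06 with VE-821, a call lost with the authors' normalized values, and 1.62 without it. Gal3st2, a sulfotransferase, was -0.71 with VE-821 and 1.44 without it (interaction -2.15, SE 0.19). Trappc8, part of a vesicle tethering complex, was 1.86 with VE-821 and -0.47 without it (interaction 2.34, SE 0.17), and Tuft1 was 1.60 and -0.55 (interaction 2.15, SE 0.15). Bbc3 was -0.41 with VE-821 and 1.5 without it (interaction -1.91, SE 0.20, adjusted p = 8.13e-05), Ccl5 was -1.0 and 0.68 (interaction -1.68, SE 0.24, adjusted p = 0.000634), and Mcl1 was -0.48 and 0.32 (interaction -0.79, SE 0.15, adjusted p = 0.00306).

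Interactions were negative for 28 of the 35 interferon-stimulated genes and positive for 1, and negative for 11 of the 23 MHC genes and positive for 2. The positive ones were Irgm1 (0.72) for the first list and Cd74 (0.54) and Rfxap (0.70) for the second, of which Irgm1 and Rfxap were named after their values were seen. B lineage genes had 13 negative and 3 positive interactions among 30, the positive ones being Vpreb3 and, named after their values were seen, Cd52 and Pou2f2. In the 2-cell embryo and PRAME-like list 13 of 18 interactions were positive and 1, that of Sp110, negative. The shares over all tested genes are 13.1% positive and 15.5% negative. They are no fair background where members met the detection rule through 1 group only, since that choice favours the sign seen. Through the arrays with both drugs only, 10 of the 18 met it. Through the VE-821 arrays only, 10 of the 35 interferon-stimulated genes, 7 of the 23 MHC genes and 3 of the 30 B lineage genes did. The order of these lists by their interaction medians ran from -1.01 for interferon-stimulated genes and -0.57 for MHC genes to 0.49 for heat shock genes, 0.59 for histone genes and 1.32 for the 2-cell embryo and PRAME-like list.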

How the data were processed

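The arrays are one-colour Illumina bead arrays. The authors deposited background-subtracted probe intensities, not normalized between arrays, with a detection p-value per probe and array, and a second table of normalized intensities normalized by a method the sources used here do not name. Per the submitters' processing notes, the software was GenomeStudio, with no version. The deposited intensities were background-corrected with limma's neqc (offset 16, detection p-values as guide), quantile normalized and taken to log2. Probes were kept if detected (p under 0.05) on both arrays of at least 1 of the 4 groups, and each gene was tested through its brightest probe. Symbols came from the platform annotation, 23962 of them updated through Entrez. One mean per group was fitted over all 8 arrays (4 residual degrees of freedom, 7.21 prior) with lmFit and eBayes in limma 3.58.1 (R 4.3.3), with Benjamini-Hochberg adjustment over all tested genes of a comparison. Bounds set the brighter group against the lowest signal detected. The number of arrays limits the precision. The fit was also run on simulated data in which few genes changed, unlike here, so that run does not vouch for these calls.

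Genes were named by rule: the 12 largest rises and falls, up to 4 genes of each list with the smallest adjusted p, fixed genes of the drugs' pathways, the 6 largest interactions in each direction, the 6 largest with opposite signs, and 6 detected with only one of the treatments in each direction. Others are marked in the text. The members and gene lists were chosen with earlier results of these data known. Same-numbered replicates were not paired, since their deviations did not correlate above 0.1 in every pair of groups. Alternatives were the normalization, offset, detection filter, choice of probe, arrays fitted and leaving out each array. Promoters came from RefSeq and were matched by symbol.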

Additional observations from a re-analysis of the deposited data

Results flagged for a closer look

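The response to RVX2135 differed with and without VE-821 for genes given above, by the interaction term of the limma fit, at 2 arrays per group. Listed here are 27 of them, and other called interactions named above are not repeated. The interaction is VE-821+RVX2135 minus VE-821, less RVX2135 minus DMSO, on the log2 scale. It was positive for Pramel39 (3.19), Cxcl1 (3.13), Vpreb3 (3.09), Pramel37 (2.88), Zscan4c (2.64), Zbtb2 (2.58), Hspa1a (2.57), Cdkn1c (2.52), Hspb1 (2.45), Trappc8 (2.34), Tuft1 (2.15), H4c2 (1.62), H1f1 (1.41) and Hspa5 (1.25). It was negative for Ifit3 (-2.77), Lrrc14b (-2.68), Blnk (-2.39), Ddit4 (-2.31), Cox6a2 (-2.30), St3gal6 (-2.25), Gal3st2 (-2.15), Il16 (-2.12), Bbc3 (-1.91), Ccnd1 (-1.73), Ccl5 (-1.68), Hexim1 (-1.26) and Mcl1 (-0.79). A value with a group below background is no measured size: Cxcl1 and Zscan4c were below background on all RVX2135 and DMSO arrays, Vpreb3 on both RVX2135 arrays, Pramel39 on both DMSO arrays and 1 RVX2135 array, Hspa1a on both DMSO arrays, Cxcl1 on 1 VE-821 array, and H1f1 and Lrrc14b on 1 DMSO array. These genes were chosen by rules that favour large interactions, and 28.6% of all tested genes had a called interaction. Groups of 2 arrays are too small to test a single array as an outlier.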

How the results depend on the processing

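Counts of genes past 2-fold depended most on the intensity scale. For VE-821+RVX2135 minus VE-821, the 316 higher genes became 544 with quantile normalization and no background correction, 540 with the authors' normalized values and 177 with an offset of 50, and the 414 lower genes became 771, 767 and 215. For RVX2135 minus DMSO the 141 higher became 257, 253 and 78, and the 124 lower became 245, 238 and 55, or 70 with detection on all 8 arrays. For the interaction, the 1040 positive genes became 603 and 586 in the first pair of settings, the 181 past 2-fold became 96 with offset 50, and the 273 negative past 2-fold became 450, 439 and 146. Leaving out 1 array gave 1486 to 1997 higher and 1655 to 2040 lower genes with VE-821, and 309 to 355 and 406 to 456 past 2-fold. Without VE-821 the ranges were 705 to 1229 and 721 to 1264, with 122 to 158 and 111 to 154 past 2-fold. For the interaction they were 691 to 966 and 850 to 1109, with 173 to 218 and 266 to 297 past 2-fold. The lowest counts were without DMSO replicate 1 for RVX2135 minus DMSO (705 and 721) and for positive interactions (691), and without RVX2135 replicate 2 RVX2135 minus DMSO gave 739 and 736. Deviations of same-numbered arrays correlated at 0.08 between VE-821+RVX2135 and VE-821, and from -0.031 to 0.178 over all pairs of groups, so the numbers were not taken as pairs. With the replicate number as a block, 4115 genes were called with VE-821, 3981 of them shared. Of the 171 genes named by rule, 27 lost a called interaction with quantile normalization and no background correction, and 28 with the authors' normalized values. The interactions of Ccl4 (-1.01 and -0.95), Klf4 (-0.0713 and -0.19) and Sla (-2.53 and -2.53) reversed in the first pair of settings. That of Slamf7 reversed with offset 50 (0.0057), and the cause of these reversals was not tested. Each of the genes that reversed was below background on at least 1 array.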
